A study of Sus scrofa with 2 samples.

Results

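ABT1 and HMGN4 are neighbouring genes on pig chromosome 7 that share a cluster of chromatin loops. The pair was chosen by its number of listed loops, a measured value, out of 19550 protein-coding genes on the placed chromosomes, and the data set beside it were the 14 listed loops with an anchor within 1 Mb of either gene, out of 3410 loops in all. The material was spleen tissue of pigs (Sus scrofa), a single group of 2 biological replicates with no treatment, genotype or age in the labels, in a series on transposable elements and genome folding. In situ Hi-C counts how often DNA fragments are ligated to each other because they lie side by side in fixed nuclei, and a loop is a pair of loci, its anchors, with more contacts than their surroundings. The deposited lists cover the series and not a replicate, so no value per replicate, and no spread between replicates, could be given.

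ABT1 is an activator of basal transcription found in the nucleolus, and its yeast counterpart takes part in the processing of ribosomal RNA. HMGN4 belongs to a family of proteins that bind nucleosomes and loosen compact chromatin. In humans both genes stand in a segment of dense histone, transfer RNA (tRNA), butyrophilin and zinc finger genes beside the major histocompatibility complex. Histone and tRNA genes occur there in many near-identical copies, and tRNA genes are read by RNA polymerase III. How the mapping treated reads of near-identical copies is not stated in the sources used here. Loops of mammalian chromosomes are commonly held by cohesin halted at CTCF sites, and neither protein was measured here.

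ABT1 (gene ID 100153723) lay from 21024641 to 21027815 on chromosome 7 of Sscrofa11.1. It had 6 loops, counted as loops with an annotated end of the gene in a 25 kb anchor. HMGN4 (gene ID 100157353) lay from 20998913 to 21003138, a distance of 21.5 kb, and had 5. Among all protein-coding genes, 17.3% met an anchor with an end, 0.322% had 4 or more loops and 0.0665% had 5 or more. ABT1 and SLC16A6 had 6 loops, 11 genes including HMGN4 had 5, and 50 genes had 4. These counts chose the genes and are a description, with no test.

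**Figure D1:**
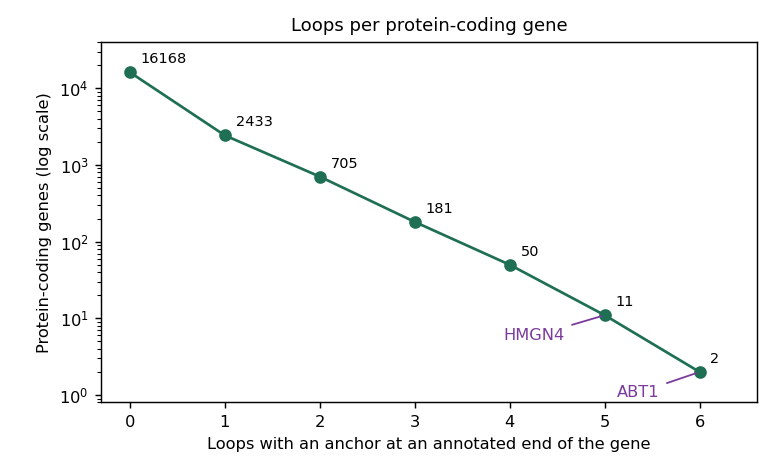
Number of protein-coding genes (vertical axis, log scale) by the number of loops with an anchor at an annotated end of the gene (horizontal axis), with the count printed at each point. ABT1 lies in the last class, of 2 genes with 6 loops, and HMGN4 among the 11 genes with 5.

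Each gene met its loops through 2 adjoining anchors. The edge between bins at 21025000 fell inside ABT1, with 360 bp of the gene on its left and 2815 bp on its right. The anchor from 21000001 to 21025000 carried 4 loops, and the anchor from 21025001 to 21050000 carried 2. HMGN4 was likewise cut by a bin edge, with 1 loop at the anchor from 20975001 to 21000000 and the same 4 at the next. The genes therefore shared 4 loops, 2 more belonged to ABT1 alone and 1 to HMGN4 alone, 7 in all. All 13 genes with 5 or more loops had their ends in 2 different anchors, and so did 45 of the 63 genes with 4 or more (71.4%), against 9.11% of all genes at an anchor. The number of loops per gene thus adds neighbouring bins as well as loops of a single bin. The central anchor, with 4 loops, was among 48 of 5285 placed anchors (0.908%) that had as many.

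**Figure D2:**
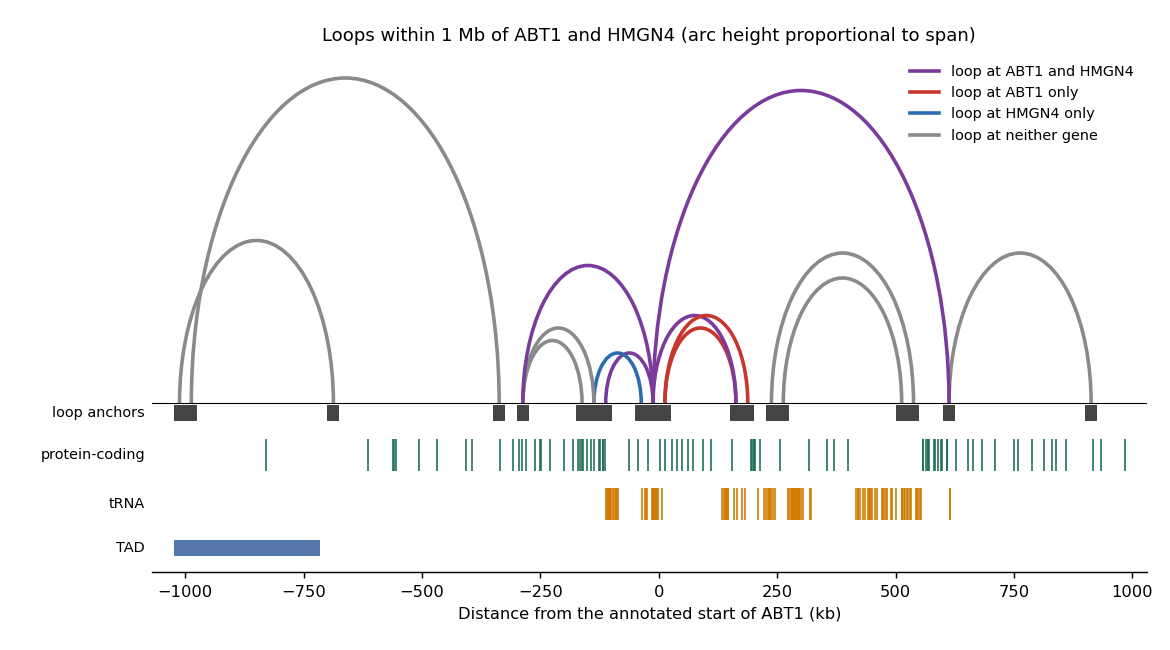
Map of the 14 loops, with distance from the annotated start of ABT1 in kb on the horizontal axis and arcs joining anchor centres at a height proportional to span. Colours mark the 4 loops of both genes, the 2 of ABT1 alone, the 1 of HMGN4 alone and the 7 of neither, and ticks below mark the 84 protein-coding and 102 tRNA genes. The single TAD of the window lies at its left end, away from both genes.

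Of the 7 loops, 3 ran to the left, on the side of the histone genes HIST1H2BD and HIST1H3E. The shortest of them joined HMGN4 to the anchor from 20875001 to 20900000 over 100 kb, with 167 observed contacts (95% Poisson interval 143 to 194) against 112 expected from the donut of pixels around it. The ratio of observed to expected contacts was 1.49, and 4.601% of 1152 autosomal loops of like span had a lower one. It started from an anchor that also holds an end of BTN1A1, a butyrophilin of the milk fat globule membrane. "Like span" means within 25 kb, and the loops of the window were left out of it.

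The second leftward loop joined the central anchor to the anchor from 20900001 to 20925000, also over 100 kb. It had 145 contacts (122 to 171) against 77.0 expected, a ratio of 1.88. The third joined the central anchor to the anchor from 20725001 to 20750000 over 275 kb, with 82 contacts (65.2 to 102) against 32.5 expected. Its ratio of 2.52 was higher than that of 89.2% of 372 autosomal loops of like span. These intervals treat contacts as independent counts and cover counting error only.

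The other 4 loops ran to the right. From the central anchor, a loop of 175 kb to the anchor from 21175001 to 21200000 had 110 contacts (90.4 to 133) against 47.7 expected, a ratio of 2.31. That partner holds both ends of TMEM225B, a gene for a predicted membrane protein. The longest loop, of 625 kb, reached the anchor from 21625001 to 21650000 with 64 contacts (49.3 to 81.7) against 24.9 expected. Its ratio was 2.57, close to the median of 2.46 for 38 autosomal loops of like span.

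The 2 loops of ABT1 alone started from the anchor on its right. They ran 150 kb to the TMEM225B anchor, with 79 contacts (62.5 to 98.5) against 33.8 expected, and 175 kb to the next bin, with 65 contacts (50.2 to 82.8) against 24.0 expected. Their ratios were 2.34 and 2.70, higher than in 87.9% and 95.8% of autosomal loops of like span. Their contacts, in contrast, were low for their span, since 8.56% and 3.21% of those loops had fewer. The expected contacts were low as well, with 5.32% and 2.75% of like loops below them. The high ratios of these loops thus went with low expected counts and not with many contacts.

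**Figure D3:**
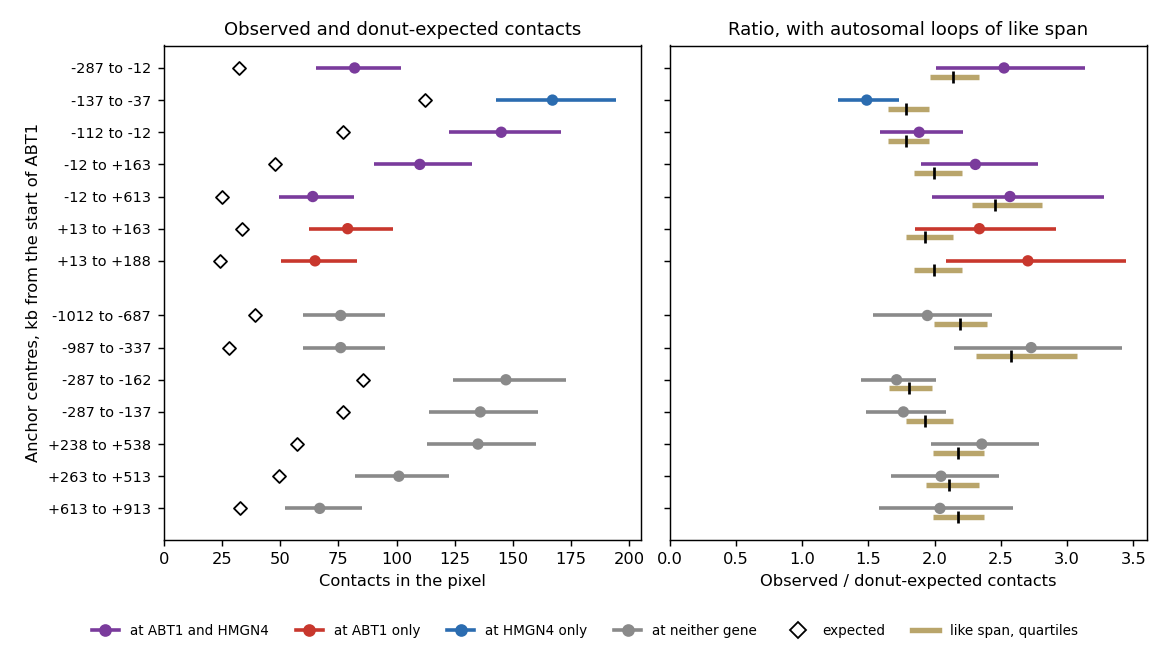
Left, observed contacts (filled points with 95% Poisson intervals) and donut-expected contacts (open diamonds) of the 14 loops, the 7 at ABT1 or HMGN4 above the 7 at neither. Right, the ratio of observed to expected contacts with the interval of the observed count, over the quartiles (bar) and median (tick) of autosomal loops of like span; 6 of the upper 7 lie right of that median.

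Over the 7 loops the median ratio was 2.34 and ranged from 1.49 to 2.70, against a median of 2.04 for the other 7 loops of the window and 2.001 for the 3261 autosomal loops (quartiles 1.796 and 2.297). In 6 of the 7 the ratio was above the median of loops of like span, in 3 the observed contacts were below it, and in 4 the expected contacts were below it. The ratio depended on the neighbourhood, and not equally on both sides. Against the lower-left neighbourhood, the pixels towards the diagonal, the 4 rightward loops had ratios of 2.72, 3.09, 3.20 and 3.92, and the 3 leftward loops had 1.97, 1.63 and 1.74. The sides did not overlap. Against the vertical neighbourhood the ratios were 2.10 to 2.58 on the right and 1.39 to 1.79 on the left. Against the horizontal neighbourhood they were 1.798 to 1.91 on the right and 1.48 to 2.68 on the left. The pair is the left anchor of the rightward loops and the right anchor of the leftward ones. The vertical and horizontal neighbourhoods therefore swap roles between the sides and are not like for like. Compared crosswise, 2.10 to 2.58 on the right overlapped 1.48 to 2.68 on the left. The range of 1.798 to 1.91 on the right lay just above 1.39 to 1.79 on the left. The loops share anchors, some are touching pixels, and no test was made of a difference between the sides.

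Among the 7 loops of the pair, the FDR of the authors' deposited table was lowest, at 4.90e-05 for the largest of its 4 values, in the 175 kb loop from the central anchor to TMEM225B. Among the same 7 loops it was highest in the authors' deposited table, at 0.0834, in the 625 kb loop. Of the 7 loops, 5 had all 4 FDR values of the authors' deposited table at or under 0.05, as did 77.8% of all loops. With these loops alone, ABT1 and HMGN4 had 4 each. Many of the loops were also pixels that touch: the 3 rightward loops of 150 to 175 kb formed a single group of touching pixels, and both 100 kb loops another. With 1 pixel kept per group, ABT1 had 3 loops and HMGN4 had 4.

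The surroundings of the pair were rich in tRNA genes. The window held 102 of the 448 placed tRNA genes (22.8%), between 112 kb left and 616 kb right of the start of ABT1, and 49 of them had an end in an anchor. That is 48.0% of the window's tRNA genes, against 11.8% of the 346 elsewhere and 20.1% of all. The window is centred on genes chosen by their loops, which raises the share at anchors for any kind of gene in it, and nothing is read from the difference. These genes stand in tandem and share anchors, so they are not independent. The 3 anchors of ABT1 and HMGN4 held 14 of the 49 tRNA genes. The central anchor had 9 of them, 3 for tyrosine, 2 each for alanine and lysine, and 1 each for isoleucine and proline. The anchor on its left had 4, for leucine, threonine, arginine and valine, and that on its right had 1, for asparagine. All 3 tyrosine tRNA genes of the window, TRNAY-GUA by name, stood in the central anchor. With them stood LOC102162475, a long non-coding RNA (lncRNA) gene that ends just before ABT1.

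The partner anchors also carried tRNA genes. Of the 14 loops of the window, 10 had a tRNA gene in at least 1 anchor, against 1.35% of placed loops. Of the 7 loops of the pair, 5 had tRNA genes at both anchors. These 5 share 2 adjoining anchors of the pair, and 3 of them form a single group of touching pixels, so they are not separate observations. In the whole window 7 loops did, out of 10 such loops among the 3402 placed loops (0.294%), and the other 3 lay on chromosomes 3, 4 and 12. The window was centred on genes chosen by their loops and holds 22.8% of placed tRNA genes, so nothing is read from these shares. The anchor from 20900001 to 20925000 held 8 tRNA genes, 2 each for methionine, serine and glutamine and 1 each for arginine and glycine. The anchors near TMEM225B and beyond held 2 each, as did the far anchor of the 625 kb loop, with TRNAM-CAU and TRNAG-GCC. None of the 5 loops of the pair joined tRNA genes of the same name.

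The remaining tRNA loops lay to the right of the pair and touched neither gene. One ran 300 kb from the anchor at 21250001 to 21275000, with 7 tRNA genes, to that at 21550001 to 21575000, with 6, and had 135 contacts (113 to 160) against 57.3 expected. Of like autosomal loops 95.8% had fewer contacts. Its anchors shared tRNA genes of 3 names, TRNAI-AAU, TRNAL-UAA and TRNAT-AGU. A loop of 250 kb nested in it, from the bin that holds PRSS16, a serine protease of the thymus, had 101 contacts (82.3 to 123) against 49.3 expected and TRNAI-AAU at both anchors. These were the only 2 of the 10 tRNA loops whose anchors shared a name. Their pixels touch and form a single group, so the 2 loops are not separate observations.

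Not all tRNA-rich bins were anchors. Of the 81 bins of 25 kb that lie whole in the window, 19 were anchors and held 2.58 ± 3.097 tRNA genes (SD, n = 19 bins). The other 62 held 0.855 ± 2.30 (SD, n = 62 bins), so the spread between bins was wider than the difference. A tRNA gene stood in 11 of the 19 and in 10 of the 62. The richest bin of the window, with 12 tRNA genes, was no anchor, and further bins with 8 and 7 were none either. Protein-coding gene ends were spread more evenly, with 1.79 ± 1.65 genes per anchor bin and 1.10 ± 1.26 per other bin.

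**Figure D4:**
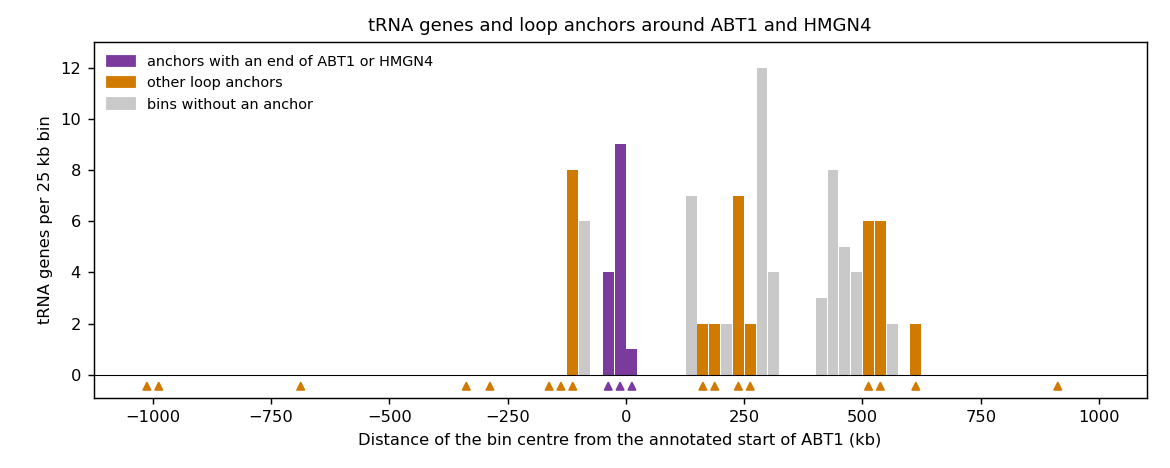
Number of tRNA genes in each 25 kb bin (vertical axis) by distance of the bin centre from the annotated start of ABT1 in kb, with triangles under the 19 bins that are loop anchors. The 3 anchors of ABT1 and HMGN4 hold 4, 9 and 1 tRNA genes, and the richest bin, with 12, is no anchor.

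Of the 84 protein-coding genes in the window, 30 (35.7%) had an end in an anchor. The share was 17.2% in the rest of the genome, a difference that the choice of the window also builds in, as for the other gene groups below. Most of the window's genes, 61, carry only LOC identifiers, to which no name or role is given here, and 21 of these were at anchors. Of the 2 histone genes with a symbol, HIST1H3E, a histone H3 gene, was in the anchor from 20850001 to 20875000 with 1 loop. HIST1H2BD, a histone H2B gene, was in none. Over all chromosomes 1 of 6 genes with a histone symbol was at an anchor (16.7%), and histone genes without a symbol could not be counted. Of the butyrophilins, BTN1A1 was at an anchor with 1 loop and BTN2A2 was not (40% of 5 in all).

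The 4 phosphate and urate transporter genes SLC17A1, SLC17A2, SLC17A3 and SLC17A4 had no loop, as had all 9 of their family (0%). Of 6 zinc finger and SCAN domain genes ZNF165, a zinc finger gene active in testis in humans, was at an anchor. That is 16.7%, near the 12.6% of all 285. ZNF322, ZNF184, ZNF391, ZNF389 and ZSCAN16 were at none. At the left end, CARMIL1, a regulator of actin capping, and TRIM38, a ubiquitin ligase that restrains innate immune signalling, had ends at the 2 anchors of a loop of 650 kb with 76 contacts (59.9 to 95.1) against 27.8 expected. That is the longest loop of the window. Among lncRNA genes 4 of 10 were at anchors, against 13.6% of all, and among pseudogenes 6 of 17, against 7.44%.

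By the share of loops held in common, the genes most like ABT1 were its neighbours in the central anchor. LOC102162475 and the 9 tRNA genes there shared 4 loops with it of 6 held by either. HMGN4 shared 4 of 7, and TMEM225B and LOC100156148 shared 2 of 6. All follow from the position of genes in a bin.

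The loops of the pair were links of a longer chain. Followed from anchor to anchor, 10 loops and 11 anchors were joined, from 20725001 to 21950000, an extent of 1225 kb. It ran from the left of HIST1H3E through ABT1 and the 625 kb loop to ZNF165. The 625 kb loop was the only link to ZNF165, and the largest of its 4 FDR values in the authors' deposited table was 0.0834. With only loops whose 4 FDR values were at most 0.05, the chain had 7 loops and did not reach ZNF165. Among 1978 such chains, of which 1248 were a lone loop, 3 had 10 loops or more. The chain holds the 7 loops by which the pair was chosen, so its place among chains follows in part from that choice. Of the 3 chains, 1 lay on chromosome Y with 78 loops and 1 on chromosome 5 with 13. The central anchor had 2 loops to each side, and 3 of the window's 19 anchors had loops on both sides, against 2.19% of all anchors. All 3 are anchors of the loops by which the pair was chosen, so nothing is read from this difference.

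No 3 anchors of the window were joined by all 3 loops when anchors were matched as exact bins, although 101 closed triples were found in the whole table and 3.64% of loops took part in them. With touching anchors merged, 1 triple closed. Its corners were the anchor from 20725001 to 20750000, the merged anchor from 20850001 to 20925000 with HIST1H3E and 8 tRNA genes, and the merged anchor from 20975001 to 21050000 with HMGN4 and ABT1. Its sides were 5 listed loops with 82 to 167 contacts. Each side was a lone loop or a single group of touching pixels, so the 5 are not separate observations. Over all loops 98 merged triples closed, with 9.94% of loops. The rightward loops of ABT1 closed none.

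ABT1 and HMGN4 lay in a wide gap between topologically associating domains (TADs, segments whose DNA meets itself more often than it meets the flanking DNA). No listed TAD held either gene. The nearest ended 689 kb to the left, at 20310000, and the next began 1562 kb to the right, at 22590001. The gap of 2280 kb was longer than 89.9% of the 1788 gaps between TADs, whose median was 360 kb. It held 12 of the 14 loops whole, the 7 of the pair among them. None of the 3 anchors of the pair was within 20 kb of a TAD edge, against 43.6% of all anchors. These anchors adjoin inside the gap, so their lack of a near edge follows from the gap and describes a single position. None of the 14 loops had both anchor midpoints inside a TAD, against 51.7% of placed loops. For the 12 loops that lie whole in the gap, this too follows from the gap. The single TAD of the window, from 20000001 to 20310000, had a loop of 325 kb near its edges with 76 contacts against 39.1 expected. The right anchor of this loop, from 20325001 to 20350000, lay outside the TAD but within 20 kb of its end. The largest of the loop's 4 FDR values, as deposited by the authors, was 0.0730.

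Other pairs of nearby genes with many loops are set beside it, as a description. The 7 loops of ABT1 and HMGN4 had a median of 82 contacts over 100 to 625 kb. SLC16A6 and ARSG on chromosome 12 had 6 loops of 100 to 175 kb, with a median of 156 contacts. ARF6 and VCPKMT on chromosome 1 had 7 loops of 100 to 225 kb, with a median of 175. LPCAT4 and NUTM1, further along chromosome 7, had 5 loops of 100 to 275 kb, with a median of 95. Many of these loops were touching pixels. Counted as groups of touching pixels, ABT1 and HMGN4 had 4, SLC16A6 and ARSG 2, ARF6 and VCPKMT 4, and LPCAT4 and NUTM1 2. The median ratio to expected contacts was 2.34 for ABT1 and HMGN4. It was 1.998 for SLC16A6 and ARSG, 1.86 for ARF6 and VCPKMT and 2.06 for LPCAT4 and NUTM1. All 6 loops of SLC16A6 and ARSG and 5 of the 7 of ARF6 and VCPKMT lay inside a TAD, whereas none of the ABT1 and HMGN4 or the LPCAT4 and NUTM1 loops did. The anchors and partners of ABT1 and HMGN4 held 14 tRNA genes each, and those of the other pairs held 0.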

How the data were processed

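Both deposited tables cover the series. Reads were processed with HiC-Pro 3.1.0, per the submitters' processing notes. The loop table comes from juicer_tools 1.9.9 (per the file headers) and holds observed contact counts in each pixel, not normalized, as the authors deposited them. Expected contacts from 4 neighbourhoods are on the same scale in the deposited table. The 4 FDR columns are q-values, per the file headers. Pooling of replicates, the TAD caller and the sequencing depth are not stated in the sources used here, so the contacts per loop are the only measure of precision.

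Genes came from a RefSeq table of Sscrofa11.1, without strand or sequence. No header names the build of the loops and TADs. It was taken as Sscrofa11.1, and on 18 of 20 chromosomes the last feature ended before, or within 100 kb after, the last annotated gene. On chromosome Y it ended 1530 kb after that gene, and on chromosome 8 it ended 160 kb after. A feature that ends before the last gene could do so in other builds too, so this check cannot settle the build. Coordinates count from 1. Loops were assigned to genes in Python 3.11.15 with pandas 2.3.3 and networkx 3.6.1, by an annotated end inside an anchor. The code was tested on simulated data with planted hubs and triples. Poisson intervals are exact. Genes named were the pair, genes at the anchors of their loops, those in the window with the most loops, the gene groups above and the genes most like ABT1. For the genes most like ABT1 the rule asked for 5, and all 10 tied at the highest share were kept. HIST1H2BD and other members without loops were named to account for their group. The members, lists and comparisons were chosen with earlier results of these data known, and no p-value was computed. Olfactory receptor genes, also listed, had no member by symbol.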

Additional observations from a re-analysis of the deposited data

How the results depend on the processing

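No paired analysis was possible because there was a single group and no table per replicate, and no replicate could be left out for the same reason. With 1 pixel kept per group of touching pixels, ABT1 had 3 loops in place of 6, the window had 9 loops in place of 14, and 30 tRNA genes of the window were at anchors in place of 49. Merging touching anchors gave 1 closed triple in place of 0. The median ratio of the 7 loops, 2.34 against the donut, was 2.72 against the lower-left, 1.82 against the horizontal and 2.10 against the vertical neighbourhood. Other alternatives (wider anchors, whole gene spans, FDR at most 0.05, distances of 0.5 and 2 Mb, boundary windows of 10 and 40 kb) moved each count by no more than 1.5 times. Among alternatives added after seeing the data, loops with tRNA genes at both anchors numbered 5 of 7 placed at FDR at most 0.05 and 3 of 6 with 1 pixel per group, in place of 7 of 10. The chain then had 7 and 5 loops in place of 10. The low number of contacts per loop, from 64 to 167, limits each ratio.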
